A study of Drosophila melanogaster with 4 samples.

Results

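Broad domains of histone H3 enrichment were examined in nuclei of wild-type 3rd instar larvae of the *Drosophila melanogaster* strain Oregon-R. A broad domain was defined as a region of enrichment at least 10 kb wide with a value above 0 in the authors' list of the whole replicate set, here the combined list. Of 23076 enriched regions in that list, 527 met this rule, which is 2.28% of the regions and 10.4% of the enriched bases. The domains were therefore chosen by width and by the sign of the value. Everything said below about width, and about the values of the combined list, describes the selection and was not tested. The study measured 4 libraries. They were 2 H3 ChIP libraries (chromatin fixed with formaldehyde, sonicated and precipitated with an antibody against H3) and 2 input libraries of the same chromatin without precipitation, 1 for each ChIP library. All 4 come from larvae of 1 strain, genotype and stage, and the labels do not say whether the replicates were separate collections of larvae, so that differences between them may be technical. They name no sorted tissue, so the values are averages over the cells of the larva. The authors deposited a list of regions for each ChIP replicate beside the combined list, each region with a value that was read as log2 of ChIP over input. Read counts were not used here, so depth is unknown, and differences between the replicates in the number or length of regions cannot be told apart from differences in depth.

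Histone H3 is a core histone, 1 of the proteins around which DNA is wrapped to form a nucleosome. ChIP against H3 itself, whatever its modification, follows where nucleosomes can be crosslinked and precipitated, and it is widely used as the level against which marks on H3 are scaled. Heterochromatin near centromeres and on chromosome 4 is rich in repeated sequence, where short reads are hard to place, and the euchromatin of the large arms holds most genes. All positions are on FlyBase r5. Genes and sequences at these positions were not analysed here.

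The domains added up to 7.30 Mb, or 5.23% of the 140 Mb of the 13 chromosome arms and scaffolds with regions. Their median width was 12.4 kb, and many lay close to the threshold: 233 of 527 (44.2%) were under 12 kb, 134 reached 15 kb, 42 reached 20 kb and 10 reached 30 kb. The widest spanned 39.7 kb. In the list of replicate 1 the same width was reached by 125 of 18082 regions, and in that of replicate 2 by 233 of 18625. Of these, 124 in replicate 1 and 231 in replicate 2 had a base in a domain. The number of domains depended on the width asked for, with 1000 at 8 kb and 294 at 12 kb. It depended more on narrow breaks between regions of the combined list. When regions less than 500 bp apart were joined first, 1358 reached 10 kb and the widest measured 118 kb.

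The enrichment in the domains was moderate and more even than in the list as a whole. The domains had a median log2 value of 0.66, a 1.58-fold excess of ChIP over input, against 0.40 or 1.32-fold for all enriched regions. The central 80% of domains lay between 0.52 and 0.86, where all enriched regions spread from 0.19 to 0.70. Regions of 5 to 10 kb, with a median of 0.58 and a central 80% from 0.42 to 0.80, were nearly as even as the domains. All but 3 of the domains were above the median of the list. Values above 1 were found in 11 domains, 2.09% of them, against 2.82% of all enriched regions. The latter share includes U, which held no domain and whose 760 enriched regions had a median of 1.08. It therefore does not show that domains exceeded 1 less often than other regions of the large arms. The highest domain value was 1.12, while 134 regions of the list exceeded 2 and the list reached 4.02. The domains are thus absent from the top of the range of values. No region labelled as depleted in any of the lists, 256 in the combined list, 3 in replicate 1 and 10 in replicate 2, had a base in a domain. This says little, since the domains are enriched regions of the same combined list and the replicate lists held few depleted regions.

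Nearly all domains lay on the 5 large arms. 3R held 138, 2R 125, X 95, 3L 92 and 2L 75, and the remaining 2 were on chromosome 4 and on 3RHet, mapped heterochromatin of the right arm of chromosome 3. The density was highest on 2R with 5.91 domains per Mb, followed by 3R with 4.95, X with 4.24, 3L with 3.75 and 2L with 3.26. Domains took up 8.04% of the length of 2R and 4.39% of that of 2L. Arms with a high density had no wider domains, the median width being 12.2 kb on 2R, 12.1 kb on 3R 12.6 kb on X and on 2L, and 12.5 kb on 3L. Domains of at least 20 kb were found 14 times on X, 9 times each on 3L and 3R and 5 times each on 2R and 2L. U, 2RHet, 3LHet, XHet, 2LHet and YHet held no domain, although 760 enriched regions of the combined list lay on U alone. The others held 232, 215, 24, 21 and 10 enriched regions, in the order given. On XHet, 2LHet and YHet the absence of domains says little, since only 2.28% of all enriched regions were domains.

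Along the arms the domains crowded towards the telomeric ends. In the 2 Mb at the telomeric end of each large arm, 125 of 525 domains were found (23.8%), against 7.46% of all 21561 enriched regions of these arms. The same 2 Mb next to the centromere held 11 domains (2.10%), against 6.48% of all enriched regions and 8.40% of the length. In steps of 10% of the arm length, the outermost step held 145 domains (27.6%) and the innermost 18 (3.43%), while all enriched regions stayed between 8.30% and 10.6% in each step. The 5 arms shared this order to different degrees. On 2L, 26 of 75 domains (34.7%) lay in the telomeric 2 Mb and none in the centromeric 2 Mb, and the last domain lay 3263 kb from the centromeric end of the assembled arm. X had 27 of 95 (28.4%) in the telomeric 2 Mb and 2 near the centromere, and 3L had 26 of 92 (28.3%) and 1. On 2R the numbers were 30 of 125 (24.0%) and 2. On 3R, where 2 Mb is 7.17% of the length, the telomeric share was the lowest, with 16 of 138 (11.6%), and 6 (4.35%) lay in the centromeric 2 Mb. The files do not say how much of the centromeric ends reads could be placed on.

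**Figure D1:**
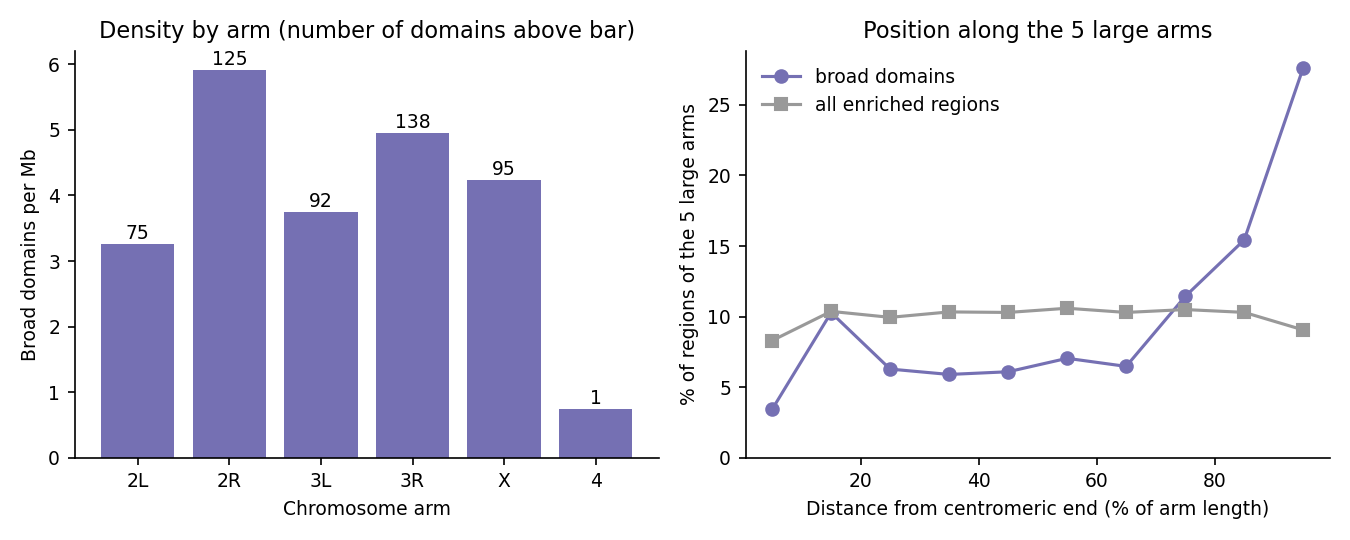
Left, broad domains per Mb (bars) on the 5 large arms and chromosome 4, with the number of domains above each bar; right, the share of regions in each step of 10% of the arm length, counted from the centromeric end, for broad domains and for all enriched regions of the combined list, pooled over the 5 large arms. Domains are densest on 2R, and their share is 27.6% in the outermost step against 3.43% in the innermost, while that of all enriched regions stays between 8.30% and 10.6%.

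In windows of 1 Mb the domains were unevenly spread. Of 117 full windows on the large arms, 14 held none and 16 held 1, with a median of 3. The window from 1 to 2 Mb of the X held 22 domains over 392 kb. It was followed by 3L from 1 to 2 Mb with 19, 2L from 0 to 1 Mb with 16, and 2R from 19 to 20 Mb and from 20 to 21 Mb with 15 each. Windows with at least 12 domains numbered 10 (8.55% of windows) and held 152 domains (28.8%). Besides the 5 named, these were 2R from 4 to 5 Mb with 14, the 3 windows of 3R between 23 and 26 Mb with 13 each and 2L from 4 to 5 Mb with 12. The incomplete window at the telomeric end of 3R, 0.905 Mb long and not counted among these, held another 14 domains, between 27023476 and 27700812. Of the 14 empty windows, 9 were on 2L, 2 on X and 1 on each other large arm. The widest stretch between neighbouring domains ran over 2.58 Mb on 2L, from the domain at 14132684 to 14147940 to that at 16730290 to 16743010. Stretches of 2.26 Mb, 2.09 Mb and 2.00 Mb followed on the same arm, and 3L had one of 2.28 Mb, after the domain at 17288666 to 17299754.

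Some domains had another domain close by. The median gap between neighbouring domains was 73.4 kb, but in 96 of 520 neighbouring pairs on the same arm (18.5%) it was at most 10 kb. Joining domains over such gaps gave 73 groups with 169 domains (32.1%), and left 358 single. There were 58 groups of 2 domains, 11 of 3, 3 of 4 and 1 of 8. 2R had the largest share of grouped domains, 55 of 125 (44.0%) in 26 groups, and 3R the smallest, 32 of 138 (23.2%) in 15. In 54 pairs the domains were next to each other in the combined list, with no narrower region between them. In 24 pairs less than 500 bp parted them. The closest lay on 3R, at 23046438 to 23056760 and 23056778 to 23067582, with 17 bp between them. Gaps of 33 bp on 2R, between 19587002 and 19587036, and of 51 bp, between 14452346 and 14452398, were next. Some groups are thus parted by breaks that are short beside the domains. No region of either replicate spanned a gap between domains.

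The group of 8 domains lay on the X from 1273364 to 1449194. It spanned 176 kb, of which domains took up 87.5%, and 3 narrower enriched regions lay between them. Its log2 values ran from 0.81 to 1.05, all above the median of 0.66 over all domains. The widest member, at 1293802 to 1333424, had 39.6 kb and a value of 0.86, and the next member began 129 bp after it. The highest value, 1.05, belonged to the last member, at 1434450 to 1449194. Replicate 1 covered 82.7% of the span with 16 regions and replicate 2 covered 89.1% with 15. Within the 8 domains, 5 were unbroken in replicate 1 and 6 in replicate 2. The mean value over the pieces of a domain was 0.75 to 0.95 in replicate 1 and 0.82 to 1.19 in replicate 2. Replicate 2 was higher in 7 of the 8, the exception being the member at 1333554 to 1343950 with 0.82 against 0.84 in replicate 1.

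**Figure D2:**
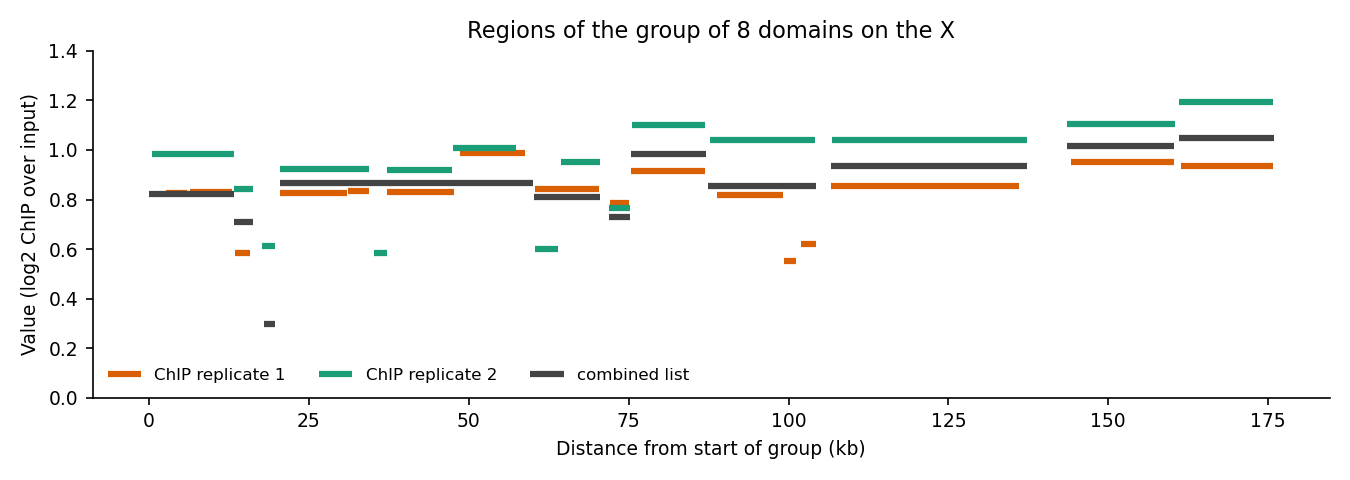
Every enriched region within the group of 8 domains on the X, drawn as a line at its value (log2 ChIP over input) against the distance from the start of the group in kb, for each ChIP replicate and for the combined list. The 8 domains of the combined list lie between 0.81 and 1.05.

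The 3 groups of 4 domains followed. The group on 2R from 20658750 to 20762504 spanned 104 kb with log2 values of 0.62 to 0.79, and it held the widest domain of all, at 20722808 to 20762504. Replicate 1 divided its 4 domains into 12 pieces and replicate 2 into 10. On 2L, the group from 874486 to 966560 (92.1 kb) had values of 0.57 to 0.84 and 10 pieces in each replicate. The group on 2L from 4463522 to 4532584 was more compact. It spanned 69.1 kb, had no other enriched region between its domains, and reached values of 0.66 to 0.97. Replicate 2 held each of its 4 domains as 1 piece, and replicate 1 had 7 pieces. Of the 11 groups of 3, that on the X from 1579286 to 1666740 had the longest domains together, 77.1 kb, with values of 0.87 to 1.02. Grouped domains had a median value of 0.70, against 0.66 for single ones, and a median width of 13.0 kb against 12.1 kb.

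Enriched regions of other widths lay close to many domains. The gap from the edge of a domain to the next enriched region of any width had a median of 765 bp, and 408 of 1054 such gaps (38.7%) were under 500 bp. For the 358 single domains alone the median was 846 bp, and 260 of 716 gaps (36.3%) were under 500 bp. For regions of 5 to 10 kb the median gap was 882 bp, for regions of 2 to 5 kb it was 1197 bp and for narrower regions 1585 bp. By their medians, the neighbours of domains were 3297 bp wide with a log2 value of 0.48, against 2543 bp and 0.42 for the neighbours of regions of 5 to 10 kb. The neighbours of domains were themselves domains in 108 cases. For single domains, none of whose neighbours reached 10 kb, the medians were 2835 bp and 0.44, closer to those of regions of 5 to 10 kb.

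Wider domains tended to have somewhat higher values. The median log2 value was 0.65 in 233 domains of 10 to 12 kb, 0.66 in 160 of 12 to 15 kb, 0.68 in 92 of 15 to 20 kb and 0.74 in 42 of at least 20 kb. Over all 527 domains, Spearman's rho between width and value was 0.24 and Pearson's r was 0.26. These describe domains that share libraries and neighbourhoods, and no p-value was computed. By arm, rho was 0.46 on X, 0.30 on 3R, 0.18 on 2R, 0.14 on 3L and 0.099 on 2L, so that on 2L and 3L width told little of the value. Without the 10 widest domains, rho over all arms was 0.20. With the mean values of the replicates in place of the combined value, rho was 0.20 in both. Among regions of 5 to 10 kb it was 0.10, and over all 23076 enriched regions, which span a wider range of widths, it was 0.55.

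**Figure D3:**
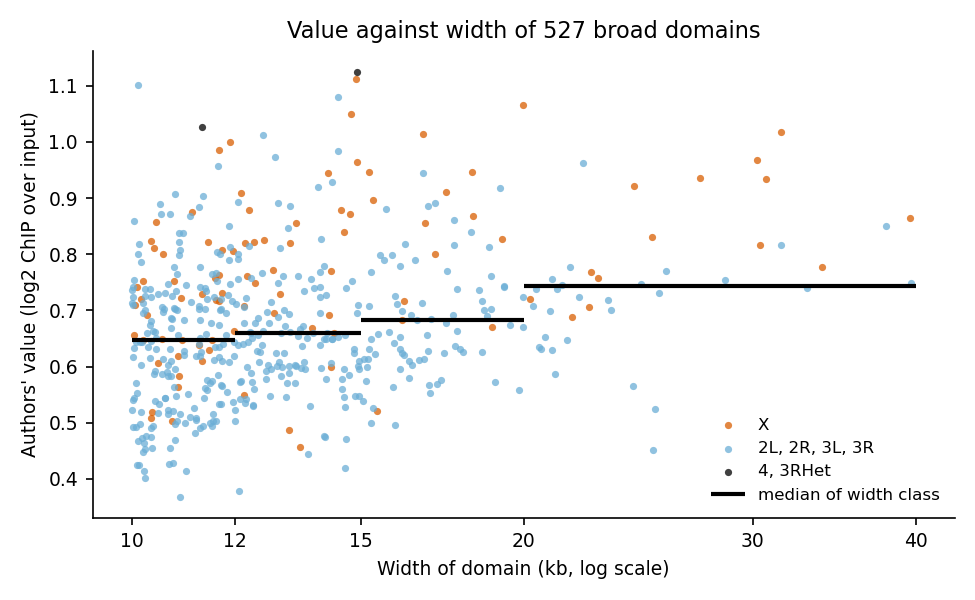
The authors' value (log2 ChIP over input) against width in kb (log scale) for all 527 broad domains, with domains of the X, of the 4 large autosomal arms and of chromosome 4 and 3RHet in separate colours. Black lines mark the median of each width class, 0.65, 0.66, 0.68 and 0.74 from the narrowest class to the widest.

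The 10 widest domains, 30.2 to 39.7 kb, had values between 0.74 and 1.02, and 6 of them were on the X. The 10 highest values lay between 1.01 and 1.12. They belonged to domains of 10.1 to 31.5 kb, 5 of them on the X. The highest, 1.12, was on 3RHet from 1639934 to 1654816 (14.9 kb). The only domain of chromosome 4, at 12916 to 24242 near the end of the assembled arm, had 1.03, against a median of 0.35 over the 55 enriched regions of that chromosome. It was the widest region there. 1 domain, on the X from 1598578 to 1630088, was both among the 10 widest and among the 10 highest. The 10 lowest values lay between 0.37 and 0.43, all in domains of at most 14.6 kb, 7 on 3R, 2 on 2R and 1 on 3L. On the X no domain was below 0.46.

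Values of the domains on the X were higher than on the autosomes. The 95 domains of the X had a median of 0.76, and the 430 domains of the 4 large autosomal arms a median of 0.65. The mean value over the pieces gave 0.75 on the X and 0.67 on the autosomes in replicate 1, and 0.87 on the X and 0.73 on the autosomes in replicate 2. Single arms ranged from 0.63 on 3R to 0.67 on 2R. Among regions of 5 to 10 kb the medians had the same order, 0.64 on the X and 0.57 on the autosomes. Labels give no sex for the larvae.

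Each domain was next compared with the regions of each replicate. A piece is the part of an enriched region of a replicate that lies inside the domain. Every domain had at least 1 piece in each replicate. Both replicates covered at least 50% of the width in 518 of 527 domains (98.3%, 95% Wilson interval 96.8 to 99.1%), against 55.3% of all enriched regions. The combined list is taken to rest on the same 2 ChIP libraries, and wide regions span several pieces, so this is a description and no independent support. The interval covers counting error only and takes domains as independent, which neighbours are not. Replicate 2 covered at least 50% of all 527 domains (68.6% of all enriched regions) and replicate 1 of 518 (62.6%). At a minimum of 90% of the width by each replicate, 239 domains remained (45.4%, against 17.6% of all enriched regions). The covered share of a domain had a median of 90.5% in replicate 1 and 95.5% in replicate 2, a mean of 93.0 ± 3.49% (SD, n = 2). Its lowest value was 33.4% in replicate 1 and 53.4% in replicate 2. In regions of 5 to 10 kb the median covered share was 86.3% in replicate 1 and 93.0% in replicate 2, close to that of domains. Over all enriched regions it was 73.4% and 83.3%. Replicate 2 covered more of the domain than replicate 1 in 379 domains, and less in 148.

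Most domains were not continuous in either replicate. Replicate 1 held 1316 pieces in the 527 domains, a mean of 2.50 a domain, and replicate 2 held 1069, a mean of 2.03. The median was 2 in both. In replicate 1, 102 domains (19.4%, 95% Wilson interval 16.2 to 22.9%) were a single piece, and in replicate 2 it was 181 (34.3%, 30.4 to 38.5%), a mean of 26.9 ± 10.6% (SD, n = 2). Over all enriched regions, 56.2% held exactly 1 region of replicate 1 and 62.2% exactly 1 of replicate 2. A region 10 kb wide has more room for breaks than one of the median width of 2171 bp. Domains were divided into 2 or more pieces in 425 cases by replicate 1 (80.6%, against 9.80% of all enriched regions) and in 346 by replicate 2 (65.7%, against 8.60%). In regions of 5 to 10 kb these shares were 47.8% and 40.6%. In 2 or 3 pieces were 340 domains in replicate 1 and 304 in replicate 2, and in 4 or more 85 and 42. The largest number was 7 in replicate 1 and 6 in replicate 2. The intervals cover counting error only and take domains as independent, which neighbours are not.

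**Figure D4:**
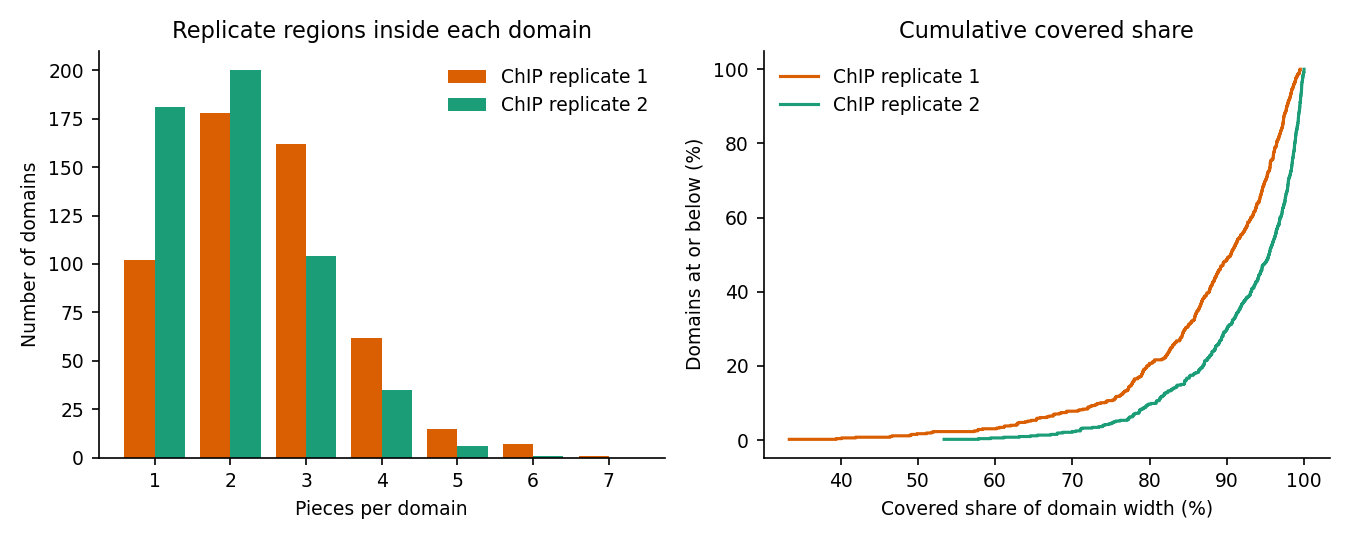
Left, the number of broad domains with 1 to 7 pieces in each ChIP replicate; right, the cumulative share of domains (%) at or below a given covered share of their width (%). Replicate 2 has more domains in 1 piece (181, against 102 in replicate 1) and a higher median covered share (95.5%, against 90.5%).

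The divided domains of the replicates coincided in part. In all, 65 domains (12.3%) were a single piece in both. Replicate 2 alone left 116 undivided, replicate 1 alone 37, and 309 were divided in both. The number of pieces was equal in 204 domains, larger in replicate 1 in 242 and larger in replicate 2 in 81. The domains undivided in both had a median width of 11.9 kb and a median log2 value of 0.80. Those divided in both had 12.7 kb and 0.63. A piece that itself reached 10 kb was present in 122 domains in replicate 1 (23.1%), in 224 in replicate 2 (42.5%) and in 97 in both. In 278 domains (52.8%) neither replicate had one. The median share of the domain taken by its widest piece was 53.6% in replicate 1 and 69.7% in replicate 2.

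How far a domain was divided went with its value. Among 91 domains with a value of at least 0.8, 51.6% were a single piece in replicate 1 and 65.9% in replicate 2. Among 288 domains with values from 0.6 to 0.8 this was 16.3% and 33.0%, and among 148 domains below 0.6 it was 5.41% and 17.6%. The mean number of pieces was 1.78 and 1.45 in the highest of these classes and 3.04 and 2.51 in the lowest. Spearman's rho between value and number of pieces was -0.42 in replicate 1 and -0.43 in replicate 2, and between width and number of pieces 0.29 and 0.20. The value comes from the same ChIP libraries as the pieces, so these are descriptions of 1 data set. Domains of at least 20 kb were a single piece in 3 of 42 cases in replicate 1 and in 10 of 42 in replicate 2, and in both replicates in 2 cases.

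The 10 widest domains show the range. The widest, on 2R from 20722808 to 20762504 (39.7 kb, log2 value 0.75), had 4 pieces in each replicate, and its widest gap was 683 bp long in replicate 1 and 1092 bp long in replicate 2. On 3L, the domain from 1755974 to 1793906 (37.9 kb, 0.85) was cut into 6 pieces by replicate 1 and 5 by replicate 2. No gap in it exceeded 242 bp or 81 bp, so 97.3% and 99.3% of it were still covered. On the X, the domain from 2598494 to 2632390 (33.9 kb, 0.78) had 7 pieces in replicate 1 and 3 in replicate 2. The domain on the X from 1380000 to 1410676 (30.7 kb, 0.93) was the only one of the 10 in a single piece in both. It contained the widest region of replicate 1, 29.3 kb with a value of 0.85. The widest region of replicate 2, 31.6 kb at 1.11, made up the domain on the X from 1598578 to 1630088. On 3R, the domain from 20461638 to 20494622 (33.0 kb, 0.74) was a single piece in replicate 2 that ended 4494 bp before the end of the domain, where replicate 1 had a further piece.

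Domains with the most pieces were wide, and some were weak. On 2L, the widest domain of the arm, from 744944 to 770100 (25.2 kb), had a log2 value of 0.45 and 6 pieces in both replicates, and 65.4% of it was covered by replicate 1 and 63.1% by replicate 2. On 3L, the domain from 4194324 to 4219544 (25.2 kb, 0.52) had 6 pieces in replicate 1 and 5 in replicate 2, and that from 10892528 to 10916774 (24.2 kb, 0.57) had 6 and 4. The lowest covered share over both replicates was on 3R from 25093836 to 25105930 (12.1 kb, 0.38), with 40.1% in replicate 1 and 57.9% in replicate 2. The lowest in replicate 1, 33.4%, was on 3R from 27690706 to 27700812 (10.1 kb, 0.47), where replicate 2 covered 79.5%. Low covered shares were also found on 2R from 17928298 to 17938388 (41.9% and 59.4%), on the X from 4292962 to 4303300 (39.4% and 64.6%) and on 3R from 11322670 to 11333556 (51.1% and 53.4%). The last of these had the lowest value of all domains, 0.37.

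The gaps between pieces were mostly short. Replicate 1 had 789 of them with a median of 262 bp, and replicate 2 had 542 with a median of 224 bp. Gaps under 150 bp, about the length of DNA in a nucleosome, made up 36.8% in replicate 1 and 39.3% in replicate 2, and gaps of at least 1000 bp made up 20.2% and 14.9%. The longest measured 4192 bp and 3989 bp. All gaps together held 5.85% of the bases of the domains in replicate 1 and 3.37% in replicate 2, and uncovered ends held 6.09% and 4.00%. When replicate regions less than 500 bp apart were joined, 307 domains (58.3%) were a single piece in replicate 1, against 102 before joining. In replicate 2 it was 378 (71.7%), against 181 before, and 258 were a single piece in both. The count of divided domains therefore rests in part on breaks shorter than 500 bp, and many domains stayed divided without them.

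The replicates broke the domains at partly the same places. Of the gaps of replicate 1, 288 of 789 (36.5%) shared at least 1 base with a gap of replicate 2, and of those of replicate 2, 290 of 542 (53.5%) did so with replicate 1. These shared gaps lay in 232 of the 309 domains divided in both. Shared gaps were longer by their median, at 462 bp against 194 bp for the others in replicate 1, and at 305 bp against 161 bp for the others in replicate 2. Longer gaps have more bases that can be shared. Of gaps of at least 1000 bp, 82 of 159 in replicate 1 (51.6%) and 53 of 81 in replicate 2 (65.4%) were shared, and of gaps under 150 bp 69 of 290 (23.8%) and 94 of 213 (44.1%). Regions of the other replicate covered 73.7% of the gap bases of replicate 1 and 51.9% of those of replicate 2. On 3L, in the domain from 21968892 to 21985836 (log2 value 0.55), both replicates left almost the same stretch empty, from 21980262 to 21984341 in replicate 1 and from 21980234 to 21984222 in replicate 2. The longest gap of replicate 1, on the X from 7096734 to 7100925, enclosed a gap of 1744 bp in replicate 2. On 2R, a gap of 3758 bp in replicate 1, from 11021098 to 11024855, enclosed 1 of 943 bp.

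Pieces of 1 domain differed in value. In divided domains, the highest and lowest piece differed by a median of 0.20 log2 units in replicate 1 and 0.23 in replicate 2. The widest piece also had the highest value in 282 of 425 divided domains in replicate 1 (66.4%) and in 236 of 346 in replicate 2 (68.2%). In domains with at least 3 pieces, the end pieces had a median value of 0.62 in replicate 1 and 0.65 in replicate 2, and the inner pieces 0.60 and 0.62. The median width of end pieces was 3152 bp and 3358 bp, and that of inner pieces 2812 bp and 3130 bp. By these medians the inner pieces were not the higher ones.

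At their edges the domains were slightly wider than the replicate regions. The first piece of a domain began a median of 134 bp after the start of the domain in replicate 1 and 65 bp after it in replicate 2. The last piece ended 146 bp and 66 bp before the end of the domain. A replicate region reached over an edge of a domain at 71 of 1054 edges in replicate 1 and at 185 in replicate 2, and by more than 500 bp at 3 and 12. Pieces stopped at least 1000 bp short of an edge 157 times in replicate 1 and 103 times in replicate 2.

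Replicate 2 had the higher values inside the domains. The mean value over the pieces, weighted by their width, had a median of 0.68 in replicate 1 and 0.75 in replicate 2, a mean of 0.71 ± 0.046 (SD, n = 2). The difference of replicate 2 minus replicate 1 had a median of 0.072, and it was above 0 in 426 of 527 domains (80.8%), against 56.2% of the 13755 enriched regions of the list that had a piece in both replicates. The median difference was 0.14 in domains with a value of at least 0.8, 0.073 in those from 0.6 to 0.8 and 0.035 in those below 0.6. These classes rest on the combined value, whose Spearman's rho was 0.94 with the mean value of replicate 2 and 0.88 with that of replicate 1. They are thus not independent of the difference. For the X the median difference was 0.10, and for the large autosomal arms 0.066. Over all enriched regions with both replicates it was 0.016. Regions of 5 to 10 kb lay between these and the domains, with a median difference of 0.045, and replicate 2 was higher in 1764 of 2642. Split by chromosome, regions of that width gave 0.066 for the X and 0.042 for the autosomes. A higher value in replicate 2 was thus not particular to domains. The domain values ordered alike in the replicates, with Spearman's rho of 0.79 and Pearson's r of 0.82 over the 527 domains, as a description. The combined value lay below the values of both replicates in 283 domains, between them in 244 and above both in none. A mean over pieces leaves out the gaps and ends. The files do not say whether the combined value takes them in.

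The regions on either side of the threshold were as follows. The 3 narrowest domains had widths of 10001, 10005 and 10007 bp, on 3L from 1189030 to 1199030 (log2 value 0.71), on 3L from 735336 to 745340 (0.52) and on 3R from 7047860 to 7057866 (0.74). The 3 widest regions outside the definition had 9999, 9979 and 9969 bp, on 3R from 18439424 to 18449422 (0.61), on 3L from 4027478 to 4037456 (0.40) and on the X from 976148 to 986116 (0.56). Each of these 3 had 2 pieces in replicate 1. The covered share of the 3 narrowest domains, in the order given, was 98.7%, 94.3% and 95.5% in replicate 1 and 97.9%, 98.0% and 94.8% in replicate 2. That of the 3 regions outside was 79.6%, 33.9% and 59.1% in replicate 1 and 99.4%, 86.1% and 82.7% in replicate 2. In replicate 1 these 3 regions outside were thus less covered than the 3 narrowest domains, while in replicate 2 the highest share, 99.4%, was outside. By their medians in replicate 1, domains of 10 to 12 kb (88.8%) and regions of 5 to 10 kb (86.3%) were close. Another 3 regions reached 10 kb in a replicate but touched no domain, because the combined list breaks them. These were a region of 12013 bp in replicate 1 on the X from 18743442 to 18755454 (0.76), and in replicate 2 regions of 10853 bp on 2R from 7712750 to 7723602 (0.74) and of 11467 bp on 3R from 25752277 to 25763743 (0.68). The widest break that the combined list has there measured 25 bp in the first and 5 bp in each of the others.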

How the data were processed

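H3 ChIP and input libraries of wild-type larvae were sequenced, 2 of each. Reads were aligned with Bowtie 0.12.7, per the submitters' processing notes, and the build is FlyBase r5, per the file headers. Labels and headers do not name the region caller, its thresholds, the scaling to input or how the combined list was made. The authors deposited 1 value a region, read here as log2 of ChIP over input. No header names this unit: among the 40 highest values of the combined list, 55 of 55 differences between distinct values gave a fraction of whole numbers (denominator up to 100, tolerance 1e-08) when read as log2, as did 449 of 496 in replicate 1 and 343 of 406 in replicate 2, and 0 did in any list when read as natural logs. The files do not say whether it is a mean or a maximum over the region.

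Domains were enriched regions (value above 0) of at least 10 kb. Pieces, gaps, covered shares and groups (gaps of at most 10 kb) were computed with Python 3.11.15, numpy 2.4.6, pandas 2.3.3 and scipy 1.17.1. The computation was tested on 500 simulated domains given as input. For all 500, the planted pieces, covered share, mean value, gap bases, distances to the edges and group were returned. No simulated region reached over an edge of a domain, so that case was not tested. Without counts, depth is unknown and single values have no interval. Input enters only through the authors' own ratio. No test was made, since domains were chosen on the same libraries as every value. The rule and the measures were chosen with earlier results of these data known. Regions named are the 10 widest, highest and lowest, the 5 largest groups, the 5 with most pieces and the 5 with the lowest covered share, the widest of each arm and the 3 on either side of the threshold. Other regions named, such as the longest stretches and gaps, were chosen after their values were seen.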

Additional observations from a re-analysis of the deposited data

How the results depend on the processing

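Of 28 alternative values, 16 were counted as unchanged and 12 were not. For means of the replicates, unchanged meant within the spread of the replicates, and for counts within 1.5 times the count. For Spearman's rho of value and width it meant the same number at 2 decimals. A change of direction was looked for in rho only, and rho kept its sign. The number of domains was 1000 at a minimum width of 8 kb, 294 at 12 kb and 1358 with combined regions less than 500 bp apart joined. With replicate regions joined in the same way, the mean share of undivided domains was 65.0% in place of 26.9% and the median number of pieces 1 in place of 2. It was 2.5 at 12 kb. With only replicate regions at or above the median value of their list, the median covered share was 87.7% in place of 93.0%. With 90% of the width required, both replicates covered 239 domains in place of 518. Grouped domains numbered 73 at 12 kb in place of 169, where fewer domains are left to group. Spearman's rho of value and width was 0.23 on the 6 main arms, 0.22 at 12 kb and 0.20 without the 10 widest domains, in place of 0.24. Leaving out 1 replicate gave 19.4 to 34.3% undivided domains, a median of 2 pieces in both cases, a median covered share of 90.5 to 95.5% and 518 to 527 domains covered. For the undivided share, the pieces and the covered share, such a value always lies within the SD of the 2 replicates. Its being counted as unchanged therefore shows nothing. No paired analysis was possible because no result comes from a test and input libraries enter only through the authors' ratio. Unknown depth limits every comparison between the replicate lists.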
